A study of Mus musculus with 17 samples.

Results

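Medullary thymic epithelial cells (mTECs) that carried the Aire reporter were set against reporter-negative mTECs, both from adult wild-type (WT) mice. The comparison takes the samples titled as adult GFP+ cells without a knockout and the adult GFP- samples of the same numbers, 3 arrays on each side and 6 of the 17 arrays of the series. The tissue is the thymic medulla of C57BL/6 mice, sorted by flow cytometry as CD45- Ly51- cells with a high level of MHC class II protein. All animals carried Adig, a transgenic reporter in which Aire regulatory sequence drives Igrp (the gene G6pc2) together with green fluorescent protein (GFP). GFP therefore marks cells in which Aire regulatory sequence is or was active.

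The samples compared were GFP+ cells of 5-week-old WT adults (3 arrays) and GFP- cells of 5-week-old WT adults (3 arrays). Other groups are drawn on where they bear on this comparison: GFP+ cells of Aire-knockout (KO) adults (3 arrays, 5 weeks), GFP+ cells of WT perinates (3 arrays, 3 days) and GFP- cells of WT perinates (2 arrays, 3 days), all on the same reporter background; the perinate age is that of the sample labels, while the design text gives 0 to 3 days. GFP+ cells of KO perinates (3 arrays, 3 days) entered the shared estimate of the spread. Each sample is labelled as mixed sex. The labels do not say how many mice went into a sample or whether samples of a group came from separate pools, so the p-values rest on a spread between samples that may be partly technical.

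As background, mTECs display fragments of proteins from many organs to developing T cells, and T cells that bind them too strongly are deleted or become regulatory cells. Aire, a transcriptional regulator found in mature mTECs with abundant MHC class II, switches on a large share of those organ-restricted transcripts. Aire-negative mTECs are a mixture: immature and basal cells, cells that have not yet reached or have passed the Aire stage, and mimetic cells that take on the programmes of tuft cells, microfold cells, keratinocytes, ciliated cells and other peripheral cell types. In sorted bulk samples such as these, fewer cells of a type and less RNA per cell cannot be told apart.

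Expression was read on Mouse Gene 1.0 ST arrays (Affymetrix), which give 1 intensity per probe set in linear units and no read depth; the number of arrays limits the precision. Of 19752 genes with a probe set of their own, 13842 lay above the 40th percentile of their array on at least 2 of the 17 arrays and were tested. Gene lists by pathway and cell type hold 1085 genes, of which 1006 have a probe set and 828 were tested. A dim gene that passed this filter through the population where it is high had to differ, so counts over lists cover the tested members only. Array medians of the 6 adult WT arrays lay between 154 and 157.1, and their 40th percentiles between 106.2 and 110.2. Signals below that level are near the background of the array, so a fold change against such a signal depends on the floor. Replicates correlated at 0.982 to 0.989 among GFP+ arrays and 0.974 to 0.984 among GFP- arrays over the log2 values of the tested genes, against 0.873 to 0.899 between GFP+ and GFP- arrays. The first principal component of the 6 arrays held 80.4% of the variance and separated GFP+ from GFP- samples. The second held 9.44% and set both samples numbered 6 apart from the other 4. Of 30 immediate-early and stress genes, 27 were brightest on the array numbered 6 within both populations, as were 10 of 12 thymocyte markers, against 15.7% of all genes. Nr4a1, a gene induced within minutes of stimulation, read 2071, 558 and 572 in GFP+ cells and 1764, 695 and 932 in GFP- cells, and the recombinase gene Rag1 read 277, 64.8 and 89.8 and 195, 62 and 79.3 in the same order. Both genes and these counts were chosen after values were seen, and neither gene was called between GFP+ and GFP- cells by the test used below.

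The sorted populations differed across a large part of the transcriptome. With limma on log2 intensity and Benjamini-Hochberg adjustment over all genes tested, 3422 genes (24.7%) were higher and 2788 (20.1%) lower in GFP+ cells at an adjusted p under 0.05, together 44.9%; genes past this threshold are termed called. At least 2-fold differences made up 808 of the higher genes (5.84% of those tested) and 565 of the lower ones (4.08%). The 3 GFP+ arrays did not overlap the 3 GFP- arrays for 56.1% of tested genes, 30.6% above and 25.5% below. Differences of at least 4-fold were found for 84 higher and 97 lower genes. Of these, the dimmer population lay below the 40th percentile on all 3 arrays for 43 of the higher and 30 of the lower genes. The median log2 difference over all tested genes was 0.02. Counts of list members given below are to be read beside the shares of all genes, 24.7% higher and 20.1% lower.

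**Figure D1:**
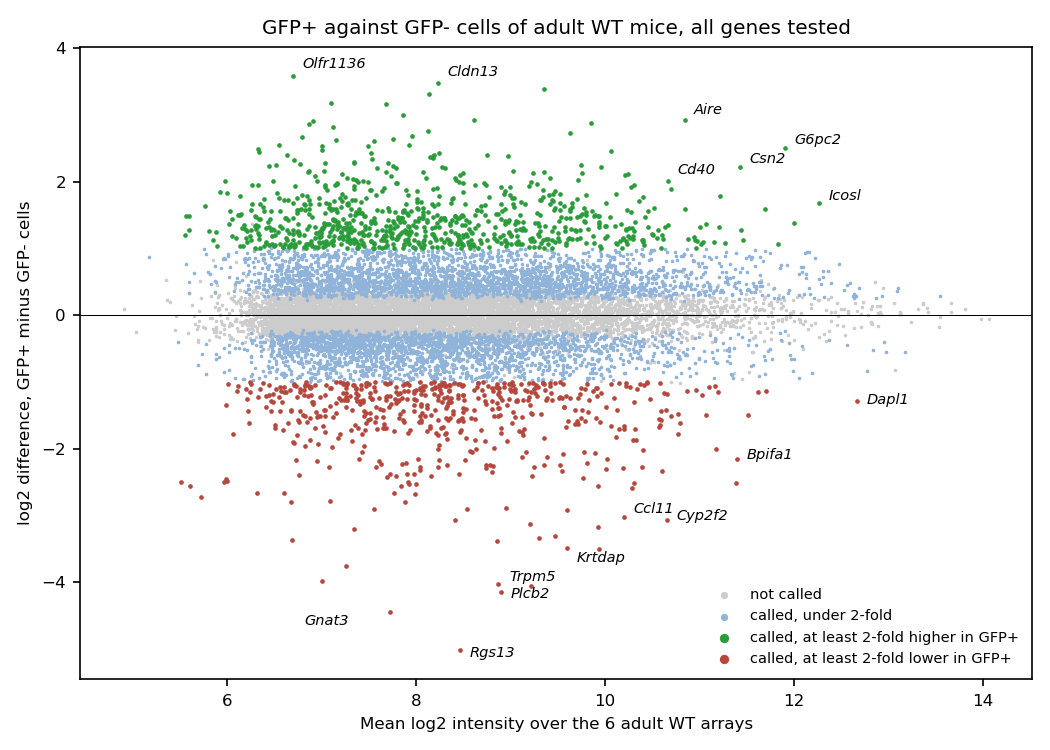
Each point is 1 of the 13842 tested genes, placed by its mean log2 intensity over the 6 adult WT arrays (horizontal) and its log2 difference, GFP+ minus GFP- cells (vertical). Green points are called and at least 2-fold higher in GFP+ cells (808 genes), red points at least 2-fold lower (565 genes), blue points called with a smaller difference and grey points not called; the lower side reaches further, to a log2 difference of -5.02 for Rgs13.

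Aire and the reporter's own gene were higher in GFP+ cells. Aire read 4355, 6196 and 4739 in GFP+ cells, against 645, 930.1 and 495 in GFP- cells, a 7.55-fold difference (log2 2.92, 95% confidence interval 2.48 to 3.35, adjusted p = 2.41e-08). G6pc2, the islet autoantigen also called IGRP, read 8956, 8777 and 9689.8 in GFP+ cells, against 1452, 1725 and 1664 in GFP- cells (5.67-fold higher). As the reporter itself carries Igrp, signal of the transgene and of the endogenous gene cannot be told apart here. GFP- cells held Aire signal above the 40th percentile on all 3 arrays, and no GFP- array reached a GFP+ array for either gene. The Aire signal of the KO arrays, 4851, 4689 and 5242, was like that of WT GFP+ cells, so Aire signal gives no check of the KO label.

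Markers of mature mTECs were present in both populations. H2-Aa and Cd74, the MHC class II chain and the invariant chain that fit the high-MHCII gate, differed little: H2-Aa read 10505, 10245 and 10684 in GFP+ cells and 9820.4, 10090.2 and 9647 in GFP- cells, a difference that was not called (adjusted p = 0.467). The costimulator Cd80 was 1.56-fold higher in GFP+ cells (3820.3, 3682 and 3357, against 2726, 2394 and 1889 in GFP- cells). Fezf2, another regulator of organ-restricted transcripts in mTECs, was 1.32-fold higher (3632, 4269 and 4312, against 2974, 3272 and 2971 in GFP- cells; adjusted p = 0.0456). With the replicate number as a block that adjusted p was 0.0528, and leaving out any array but the GFP+ array numbered 6 ended the call as well (0.0576 to 0.127). With quantile normalization the log2 difference was 0.268 (adjusted p = 0.203), against 0.40 in the values reported. The epithelial adhesion gene Epcam was 1.35-fold higher in GFP+ cells (adjusted p = 0.0187; 0.0736 and 0.0738 without the GFP- array numbered 6 or 7, and 0.069 with quantile normalization), Cdh1 (E-cadherin) was 1.45-fold lower, and the simple keratin Krt8 was not called.

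Some markers of other cell types differed between the sorted populations. Ptprc (CD45), the sort's exclusion marker for blood cells, read 204, 120.1 and 129 in GFP+ cells and 209, 141 and 185 in GFP- cells and was not called. Enpep encodes the other excluded protein, Ly51, and was 2.36-fold higher in GFP+ cells (226, 307 and 267, against 111, 124 and 102 in GFP- cells). The cortical epithelial marker Psmb11 lay at 93.5 to 109.5 in GFP+ cells and 88.9 to 102 in GFP- cells, at or below the 40th percentile. Of 17 dendritic cell and macrophage markers tested, 8 were higher and 1 lower, with summed intensities of 10395 to 10602 on GFP+ arrays and 7916 to 9308 on GFP- arrays. The higher ones included Adgre1, a macrophage surface receptor (178, 226 and 198, against 43.4, 45.9 and 36.9 in GFP- cells, below the 40th percentile), and Mrc1, the mannose receptor (2.93-fold), while Itgax (CD11c) was below the filter and not tested. In GFP+ cells of KO adults Adgre1 averaged 52.6 ± 10.6 (SD, n = 3), against 201 ± 24.4 in WT GFP+ cells. That KO mean lay below the 40th percentile of the KO arrays. Of 12 thymocyte markers 1 was higher and 1 lower, with sums of 1600 to 2861 on GFP+ arrays and 1474 to 2645 on GFP- arrays. Of 12 fibroblast markers 5 were higher and 0 lower, with sums of 3771 to 4209 and 2722 to 3051 in the same order, while the defining marker Pdgfra lay below the 40th percentile in both. Endothelial markers (2 higher, 1 lower of 10) summed to 1667 to 1837 on GFP+ arrays and 1617 to 2127 on GFP- arrays, and B cell markers (1 and 1 of 5) to 1172 to 1266 and 1163 to 1325. Whether such cells contribute to the differences reported below was not tested.

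**Figure D2:**
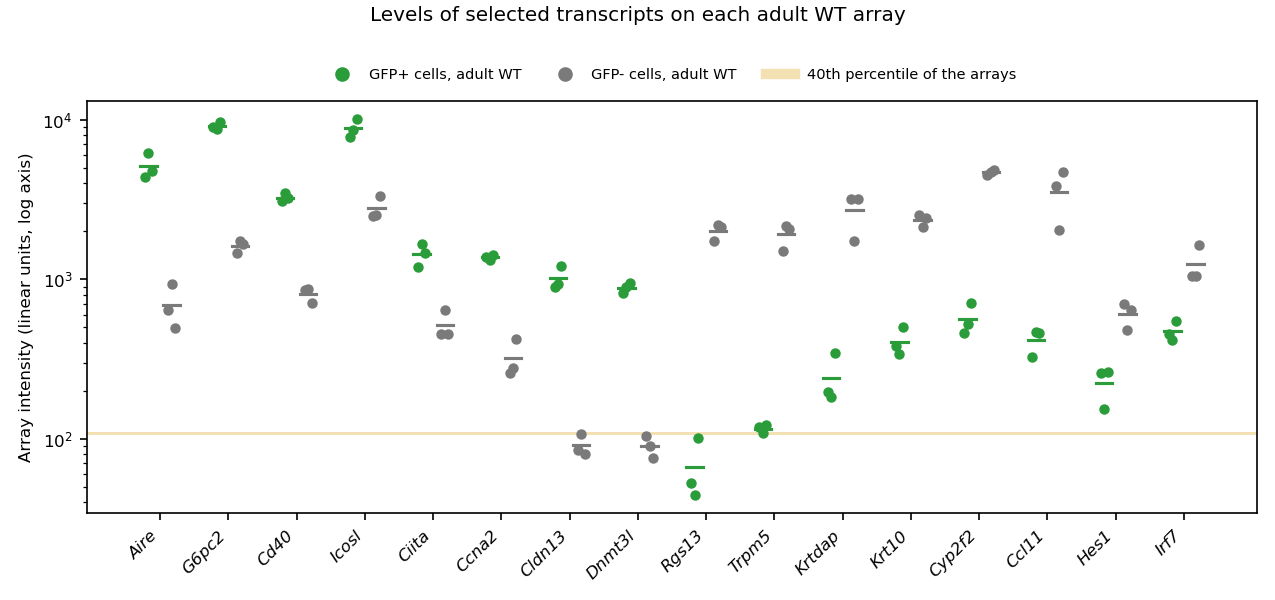
Array intensity (linear units, log axis) of 16 transcripts on the 6 adult WT arrays, GFP+ cells in green to the left of GFP- cells in grey; each point is 1 array, bars are means of 3 and the band is the 40th percentile of these arrays. The 3 GFP+ arrays lie above the 3 GFP- arrays for the 8 genes from Aire to Dnmt3l and below them for the 8 genes from Rgs13 to Irf7. The 16 genes were picked from those named, and the largest differences were named only where arrays did not overlap. Over all tested genes, 56.1% did not overlap.

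The genes with the largest rise came from many organs and families. Olfr1136, an odorant receptor gene, read 319.5, 382 and 376 in GFP+ cells, against 31.6, 32.9 and 25.6 in GFP- cells (12-fold). Cldn13, a tight-junction claudin, read 899, 927 and 1209 in GFP+ cells, against 85.4, 107 and 80.1 in GFP- cells (11.1-fold). Dnmt3l, a catalytically inactive partner of the de novo DNA methyltransferases that is best known in germ cells, read 814, 888 and 952, against 103, 90.6 and 75.9 in GFP- cells (9.89-fold). For these 3 genes every GFP- array lay below the 40th percentile, so the fold rests on a background signal. Tvp23a, a Golgi membrane protein gene, had GFP- signals of 179.7 to 251, above that level, and was 10.4-fold higher.

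The rest of the 25 largest rises included tryptophan-degrading enzymes of liver (Tdo2, 7.94-fold, and Kmo, 9.08-fold), the intestinal lectin Reg4 (8.96-fold), the hormone-binding protein gene Crhbp (7.57-fold), the cartilage gene Ucma (7.37-fold), the cytokine Il5 (7.28-fold), the cytotoxic protease gene Gzmb (5.76-fold), the cardiac calcium-pump regulator Pln (5.78-fold) and the liver cytochrome Cyp1a2 (6.39-fold). No GFP- array of Reg4, Kmo, Tdo2, Il5, Gzmb, Pln or Cyp1a2 reached the 40th percentile. Among genes at least 2-fold higher, those with the brightest GFP+ signals were, besides Aire and G6pc2, Icosl, H2-Eb2, Csn2, Calcb, Ifi30, Hdc, Ccnd2 and Psme2. Hdc, the enzyme that makes histamine, read 4621, 4800.1 and 3864 in GFP+ cells, against 1473, 1540.3 and 921 in GFP- cells, and Calcb, a calcitonin-related neuropeptide gene, read 7020.1, 5628 and 4755, against 3237, 1551 and 1375.

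GFP+ cells of KO adults give the level of these transcripts in reporter-positive cells without functional Aire; that comparison shares its WT GFP+ arrays with this one, so the values are set side by side and no overlap is counted. Reg4 averaged 47.7 ± 5.53 in KO GFP+ cells, 616 ± 38.9 in WT GFP+ cells and 71.8 ± 26.6 in WT GFP- cells (SD, n = 3 each). Tdo2 averaged 70.2 ± 18.4, 656 ± 83.2 and 82.7 ± 11.6 in the same 3 groups. Both were lower in KO than in WT GFP+ cells (adjusted p = 3.3e-10 and 7.46e-09). Their KO means and WT GFP- means all lay below the 40th percentile of the arrays, so the order of KO GFP+ and WT GFP- cells is one of background signals. Other transcripts among the largest rises did not fall: Dnmt3l averaged 1483 ± 143 in KO GFP+ cells, 884 ± 68.9 in WT GFP+ cells and 90 ± 13.8 in WT GFP- cells, and Olfr1136 averaged 1324 ± 303, 359 ± 34.4 and 30 ± 3.86. For those 2 genes KO cells were above WT GFP+ cells (adjusted p = 0.000171 and 5.4e-06). Cldn13 (993 ± 224 in KO GFP+ cells, 1012 ± 171 in WT GFP+ cells) and Csn2 (7089 ± 264 and 5990 ± 698) were not called between KO and WT. Over all genes, 19.9% were called between KO and WT GFP+ cells of adults.

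Regulators that mark mTEC maturation were higher more often than lower. In a list of 24 mTEC regulators, 10 were higher and 2 lower, with a median log2 difference of 0.19 (all genes, 0.02). Cd40, a receptor for T cell help that feeds the NF-kappaB pathway, read 3075, 3452 and 3228 in GFP+ cells, against 861, 864 and 709 in GFP- cells (4.02-fold, adjusted p = 1.93e-09). Its signalling adaptor Traf6 was 2.09-fold higher, and Relb, a subunit of the non-canonical NF-kappaB pathway, was 1.76-fold higher. Tnfrsf11a, named after its values were seen, encodes RANK, a receptor that drives the formation of Aire-positive mTECs. It was 1.4-fold higher (adjusted p = 0.00806), a call lost without the GFP+ array numbered 7 (adjusted p = 0.0558) or the GFP- array numbered 6 (adjusted p = 0.0508), whereas the lymphotoxin receptor gene Ltbr was 1.65-fold lower (187, 207 and 204, against 327, 336 and 325 in GFP- cells). Irf4, a transcription factor downstream of RANK and CD40, was 2.11-fold higher. In the TNF family list of 16 genes, 6 were higher and 2 lower: Tnfrsf9 (4-1BB) was 3.62-fold and Fas 2.3-fold higher, and Tnfrsf1a, the main TNF receptor, was 2.03-fold lower.

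Genes for proteins reported to assist Aire were mostly not called. Of 23 tested, 4 were higher and 3 lower, with a median log2 difference of 0.00. Sirt1, a deacetylase needed for Aire activity, read 3555, 3216 and 2848 in GFP+ cells, against 1453, 934 and 870.4 in GFP- cells (3.02-fold higher). Top2a, a topoisomerase that is also a mitotic gene, was 3.77-fold higher, and Atf7ip, a partner of methyl-CpG-binding repressors, was 1.45-fold lower. Among 18 DNA methylation and chromatin genes, 6 were higher and 5 lower; besides Dnmt3l, Uhrf1, which recruits the maintenance methyltransferase, was 2.93-fold higher, and the demethylase gene Kdm5b was 1.73-fold lower.

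Antigen presentation and costimulation genes were called higher more often than lower in GFP+ cells, with the brightest class II genes not called. In the MHC class II presentation list, 9 of 15 were higher and 0 lower. Ciita, the master transcription factor of the pathway, read 1194, 1661 and 1463 in GFP+ cells, against 454, 643 and 455 in GFP- cells (2.79-fold). H2-Eb2, a class II beta chain gene, read 6413, 6693 and 6639, against 2438, 2982 and 2254 in GFP- cells (2.59-fold). The lysosomal proteases Ctsh (2.5-fold) and Ctss (2.16-fold), the thiol reductase Ifi30 (2.1-fold) and the peptide-loading regulator H2-Ob (2.27-fold) were higher as well. Cd74, H2-Ab1 and H2-Aa, the members with the strongest signals, were not called, with log2 differences of 0.04, 0.18 and 0.09. H2-Ab1 was called higher with an intensity trend in the prior (adjusted p = 0.0103). Cd74 read 11049.5 to 11176 in GFP+ cells and 10483 to 11059 in GFP- cells, where the highest signal on any of the 17 arrays was 20106.

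Class I presentation genes were higher in 6 of 15 and lower in 1. The proteasome activator gene Psme2 was 2.19-fold higher and the immunoproteasome subunit Psmb10 1.79-fold, while B2m, the shared light chain, was not called (11715, 11747 and 12011 in GFP+ cells, 12217, 11991 and 12081 in GFP- cells). Of 16 costimulatory and coinhibitory genes, 10 were higher and 2 lower, with a median log2 difference of 0.57. Icosl, the ligand of ICOS on T cells, read 7813, 8651 and 10058 in GFP+ cells, against 2479.8, 2518 and 3332 in GFP- cells (3.2-fold), Cd70 was 2.75-fold and Cd86 2.09-fold higher. Lgals9, a galectin that binds the inhibitory receptor TIM-3, went the other way, with 1029, 1046 and 1069.9 in GFP+ cells and 2676, 2672 and 3461 in GFP- cells (2.78-fold lower), and Cd274 (PD-L1) was not called.

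Chemokines split by gene. Of 12 CC and C chemokine genes, 5 were higher and 2 lower; Ccl11, which was 8.08-fold lower, is not in that list and is described further on. Xcl1, which positions dendritic cells in the medulla, read 358, 328 and 362 in GFP+ cells, against 97, 103 and 86.4 in GFP- cells, which lay below the 40th percentile. Ccl17 (3.5-fold), Ccl25 (1.91-fold) and Ccl19 (1.65-fold), which attract maturing thymocytes and dendritic cells, were higher. Among 9 CXC chemokine genes 2 were higher and 2 lower; Cxcl13, an attractant of B cells, was 5.51-fold higher (2384, 2601 and 2557, against 418, 652 and 348 in GFP- cells), and 5 were not called. In KO GFP+ cells Xcl1 averaged 72.9 ± 7.84, Ccl17 380.5 ± 68.2 and Cxcl13 492 ± 152, against 349 ± 18.7, 1316 ± 194 and 2514 ± 115 in WT GFP+ cells (SD, n = 3 each). The KO mean of Xcl1 lay below the 40th percentile of the KO arrays. Interleukins and their receptors were higher in 9 of 18 and lower in 5, in a list that does not hold Il12rb2 (2.22-fold lower); Il15 was 2.84-fold and Il23a 2.33-fold higher, and the tuft-cell cytokine Il25 was 1.72-fold lower, against GFP+ signals below the 40th percentile.

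Cell division genes were higher in GFP+ cells as a group. All 29 mitosis and G2/M genes tested were higher in GFP+ cells, against 24.7% of all genes, and 24 of them by at least 2-fold, with a median log2 difference of 1.40. Ccna2, a cyclin of S phase and mitotic entry, read 1372, 1324 and 1420.5 in GFP+ cells, against 257, 279 and 421 in GFP- cells (4.41-fold, adjusted p = 8.59e-08). The spindle motor gene Kif11 read 682, 758 and 846, against 152, 169 and 200.2 in GFP- cells (4.39-fold), and Hmmr, a spindle-associated hyaluronan receptor, read 259.9, 265 and 298, against 45.7, 59.1 and 85.8 (4.46-fold), with all 3 GFP- signals below the 40th percentile. Mki67, the Ki-67 proliferation antigen, was 3.29-fold higher and Cdk1, the mitotic kinase, 3.5-fold higher; both were named after their values were seen. Within GFP- cells the array numbered 8 was the highest of the 3 for Ccna2, Kif11, Hmmr, Mki67 and Cdk1, and it still lay below every GFP+ array.

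DNA replication genes moved the same way to a smaller degree. Of 29 tested, 24 were higher and 0 lower, 9 by at least 2-fold, with a median log2 difference of 0.79. Rrm2, which supplies deoxynucleotides, read 566, 543 and 582 in GFP+ cells, against 192, 134 and 168 in GFP- cells (3.45-fold). The replicative polymerase gene Pole was 2.99-fold and Mcm3, a helicase subunit, 2.48-fold higher, both from GFP- signals below the 40th percentile. Among 21 cell cycle inhibitors and survival genes the directions were mixed, 4 higher and 4 lower. Ccnd2, a cyclin of G1, read 4160.2, 4206 and 4593 in GFP+ cells, against 1481, 1762 and 2203 in GFP- cells (2.41-fold higher), and the inhibitor Cdkn1c (p57) read 358, 355 and 371, against 770.2, 786 and 694 (2.07-fold lower). In KO GFP+ cells of adults Ccna2 averaged 1351 ± 150, against 1372 ± 48 in WT GFP+ cells, and Mki67 averaged 1080 ± 141, against 1166 ± 157; neither was called between KO and WT.

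Promoters of the mitotic genes are shown because these genes moved together and are known to share short promoter elements: CCAAT boxes, bound by NF-Y, and the CHR element (TTTGAA), bound by the DREAM complex. In RefSeq promoters (GRCm38.p6), the letters CCAAT occurred on either strand within the 250 bases before the start in 19 of 25 mitosis genes with a promoter (76%), 15 of 24 replication genes (62.5%) and 35.6% of all 10989 tested genes with a promoter. TTTGAA occurred on either strand in 8 of the 25 mitosis genes (32%) and 1204 of the 10989 (11%), and both elements in 7 (28%) and 4.28%. The 150 bases before the start, chosen from members that hold these letters, are given, 5' to 3' on the gene's strand, for Top2a (chr11:99024190-99024339, minus strand), Ccnb2 (chr9:70421555-70421704, minus strand), Cdk1 (chr10:69352913-69353062, minus strand) and Hmmr (chr11:40733438-40733587, minus strand). Capitals mark CCAAT or its complement ATTGG, and TTTGAA or its complement TTCAAA.
Top2a: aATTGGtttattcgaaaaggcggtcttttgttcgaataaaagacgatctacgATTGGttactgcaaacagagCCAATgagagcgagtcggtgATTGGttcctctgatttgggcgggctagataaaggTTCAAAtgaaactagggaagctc
Ccnb2: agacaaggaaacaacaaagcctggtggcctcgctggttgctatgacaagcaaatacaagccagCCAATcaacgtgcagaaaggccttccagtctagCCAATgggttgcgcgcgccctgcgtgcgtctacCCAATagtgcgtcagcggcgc
Cdk1: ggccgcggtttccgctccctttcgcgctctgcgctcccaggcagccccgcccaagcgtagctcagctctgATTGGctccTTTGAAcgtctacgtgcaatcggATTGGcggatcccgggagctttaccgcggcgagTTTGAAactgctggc
Hmmr: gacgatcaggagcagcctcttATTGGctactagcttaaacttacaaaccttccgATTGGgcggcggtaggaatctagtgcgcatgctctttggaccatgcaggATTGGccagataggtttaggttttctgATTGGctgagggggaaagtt
Each of these promoters holds CCAAT or ATTGG more than once in this window, and Top2a and Cdk1 also hold the CHR letters near the start. A match describes the letters and shows no binding.

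Organ-restricted transcripts were higher in GFP+ cells in some organ groups and divided in others. Of 19 tested transcripts commonly cited as Aire-induced, 13 were higher and 0 lower, with a median log2 difference of 0.73; such transcripts were cited for their behaviour in Aire-positive cells, so the direction is not independent evidence. S100a8, which encodes a calcium-binding protein of neutrophils, read 491, 509 and 722 in GFP+ cells, against 149, 127 and 111 in GFP- cells (4.41-fold). Pcp4, a calmodulin-binding peptide of neurons, read 2069, 2009 and 2304, against 832, 812 and 566 in GFP- cells (2.92-fold). Members that were not called included the kallikrein Klk1b8, with 1776, 1934 and 2273 in GFP+ cells and 1533, 2128 and 1892 in GFP- cells, and the trefoil peptide Tff3, with 1142, 1184 and 1488 and 1277, 1365 and 1804. In KO GFP+ cells Klk1b8 averaged 90 ± 23.1 and Tff3 144 ± 1.9, below every array of both WT populations. Klk1b8 belongs to a family of near-identical kallikreins whose probe sets may share signal.

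Milk and enamel genes were mostly higher. Of 10 milk, enamel and seminal genes tested (of 22 with a probe set), 8 were higher and 2 lower, with a median log2 difference of 1.20. A dim gene can pass the filter through the arrays where it is high, so the direction of this count may follow from the filter. Csn2, the milk protein beta-casein, read 5522, 5657 and 6792 in GFP+ cells, against 1447, 1576 and 911 in GFP- cells (4.67-fold), and Amtn, an enamel matrix gene, read 854, 1099.9 and 1020.2, against 159, 309.6 and 132 (5.29-fold). The caseins Csn1s1 (3.16-fold) and Csn1s2a (3.95-fold) followed. In KO GFP+ cells Amtn averaged 41.3 ± 7.43 and Csn1s1 16.5 ± 0.216, against 992 ± 125 and 424 ± 50.7 in WT GFP+ cells, whereas Csn2 stood at 7089 ± 264, against 5990 ± 698. The KO means of Amtn and Csn1s1 lay below the 40th percentiles of the adult KO arrays (101.4 to 102.5), near the background. The casein genes lie in 1 cluster on chromosome 5, and Amtn is on the same chromosome.

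Transcripts cited as dependent on Fezf2 were higher in 9 of 16 and lower in 4. Enterocyte and hepatocyte genes were higher in 16 of 28 and lower in 5. Apob, the carrier protein of lipoproteins, read 267, 307 and 276 in GFP+ cells, against 115, 129.8 and 102 in GFP- cells (2.46-fold), and Trf (transferrin) was 2.62-fold higher. Fgg, a fibrinogen chain, was 6.32-fold higher from a GFP- signal below the 40th percentile. The lower ones were Lgals4, an intestinal galectin (2.2-fold), Reg3b, Hp, Ttr and Cdhr5. Stomach genes were higher in 8 of 13 and lower in 1, with the pepsinogen Pgc at 843, 909 and 853 in GFP+ cells and 393, 358 and 323 in GFP- cells (2.43-fold higher). Endocrine and neuroendocrine genes were higher in 14 of 26 and lower in 4: Gcg (glucagon) was 2.62-fold and Pomc 2.45-fold higher, Iapp (amylin) was 1.77-fold lower, and Chga, a marker of neuroendocrine granules, was not called (910.3, 785 and 1024 in GFP+ cells, 956, 1292 and 967 in GFP- cells), except with array weights (adjusted p = 0.0497).

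Members of the brain list were higher in 8 of 14 and lower in 1. They were led by Tph1, an enzyme that starts serotonin synthesis and is not particular to brain (639.8, 763 and 588 in GFP+ cells, 181, 116 and 97.3 in GFP- cells). Muscle genes were higher in 8 of 21 and lower in 4: the contractile genes Tnni1 (3.22-fold) and Actc1 (2.49-fold) were among the higher ones. Retina and lens genes were higher in 5 of 7, testis and oocyte genes in 4 of 6, and neither group held a lower one. Most members of both lists (25 and 24 genes) were too dim to be tested. A dim gene can pass the filter through the arrays where it is high, so the direction of these counts may follow from the filter. The same limit holds for the brain list (14 of 26 genes with a probe set tested) and the muscle list (21 of 30). It also holds for the enterocyte and hepatocyte list (28 of 40), the endocrine list (26 of 36) and the stomach list (13 of 17). Pancreatic enzyme genes (3 higher and 5 lower of 16) and salivary and lacrimal genes (5 and 4 of 17) were split, with shares near those of all genes, 24.7% higher and 20.1% lower. Within the pancreatic list Pla2g1b was 2.09-fold higher and Rnase1 2.25-fold lower, and both fell in KO cells (68.6 ± 6.37 and 221 ± 97 in KO GFP+ cells, 1618 ± 52.2 and 1053 ± 85 in WT GFP+ cells). The KO mean of Pla2g1b lay below the 40th percentile of the KO arrays.

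**Figure D3:**
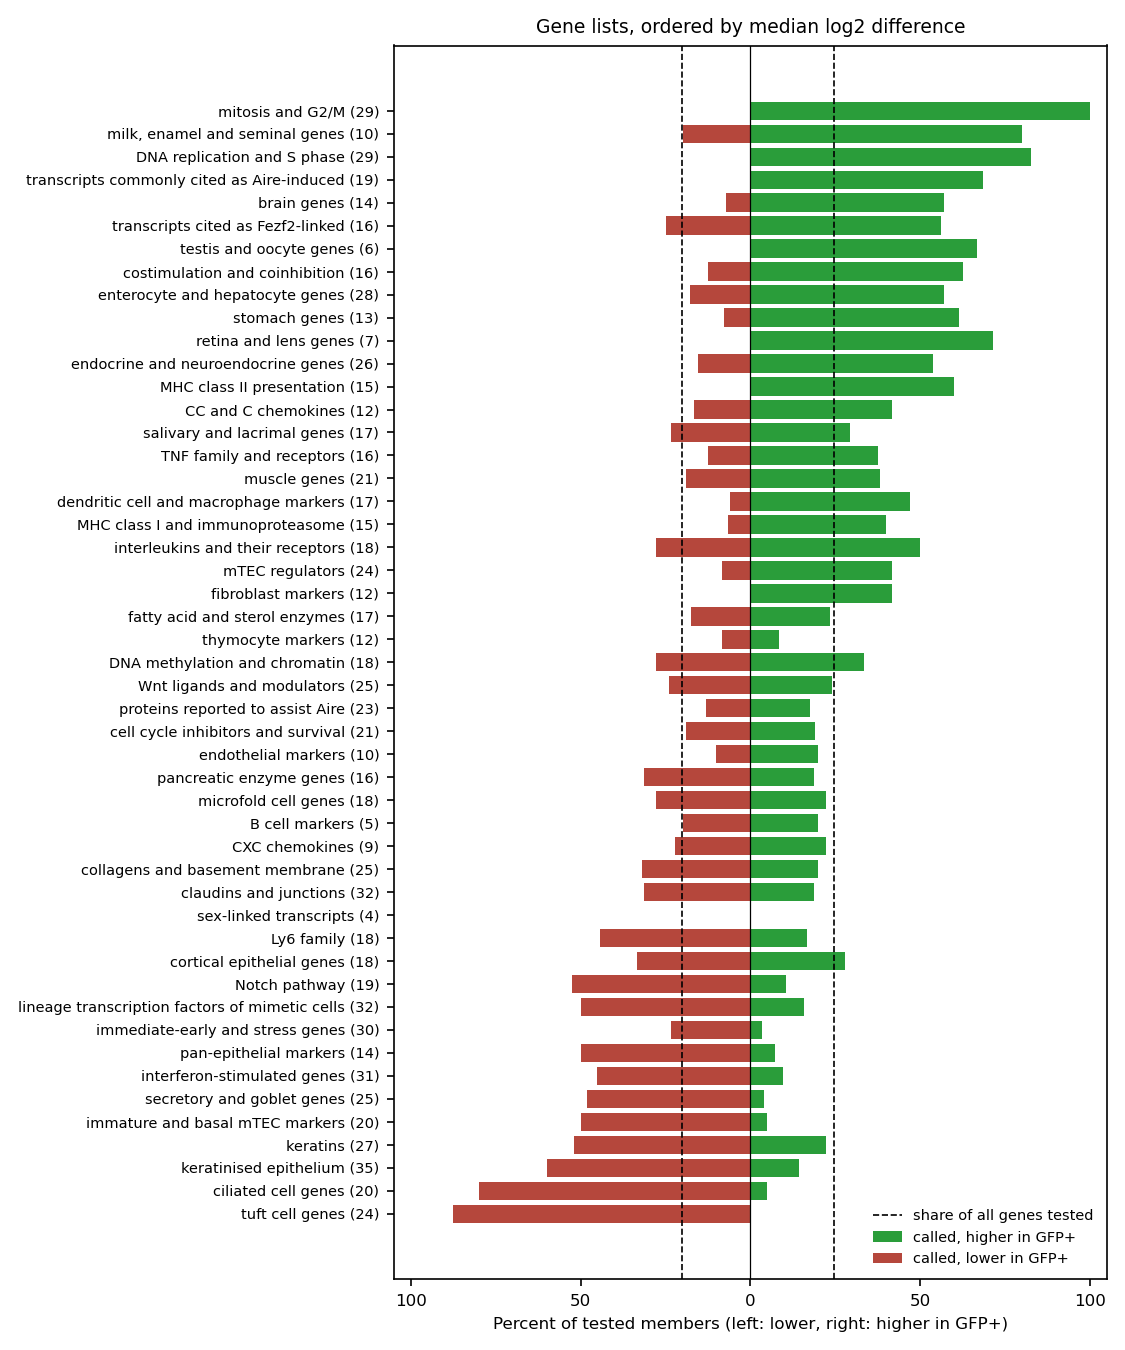
Share of the tested members of each gene list (number in brackets) that were called higher in GFP+ cells (green, to the right) or lower (red, to the left), lists ordered by their median log2 difference; dashed lines mark the share of all 13842 genes, 24.7% higher and 20.1% lower. Mitosis genes (29 of 29 higher) head the plot and tuft cell genes (21 of 24 lower) close it.

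Tuft cell genes were lower in GFP+ cells. Tuft cells are chemosensory epithelial cells that use the taste transduction cascade and release interleukin 25 and lipid mediators. Of 24 tuft genes tested, 21 were lower in GFP+ cells, against 20.1% of all genes, and 0 higher; 18 were lower by at least 2-fold and the median log2 difference was -1.87. Rgs13, a regulator of G-protein signalling, read 53, 44.7 and 101 in GFP+ cells, against 1745, 2194 and 2113 in GFP- cells (32.4-fold lower, log2 interval -6.19 to -3.84). Within the taste cascade, the G-protein subunit Gnat3 read 48.4, 41.2 and 46.4 in GFP+ cells, against 701, 1000.3 and 1345 in GFP- cells (21.7-fold lower). The phospholipase Plcb2 read 117, 92.6 and 135, against 1538, 2203 and 2351 (17.6-fold lower), and the cation channel Trpm5 read 119, 108 and 121, against 1506, 2152 and 2065 (16.3-fold lower). GFP+ signals of these 4 genes lay at or near the background. The naming rule took the largest differences only from genes whose arrays did not overlap, so a lack of overlap here follows from the rule.

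The other tuft genes followed. The bitter taste receptor Tas2r108 was 13.5-fold lower, the G-protein beta subunit Gnb3 8.74-fold, and Gng13, its gamma partner, 3.99-fold. Alox5 and Alox5ap, which start leukotriene synthesis, were 10.4-fold and 8.33-fold lower. Pou2f3, the transcription factor required for tuft cells, read 309.9, 311 and 396 in GFP+ cells, against 1365, 1564 and 1915 in GFP- cells (4.75-fold lower). Avil (7.45-fold) and Dclk1 (3.34-fold), cytoskeletal and kinase genes used as tuft markers, were lower too. The 3 members not called were Spib, Plcg2 and Hmx2. Plcg2 was called lower with quantile normalization (adjusted p = 0.0412), with array weights (0.026) and without the GFP- array numbered 6 (0.0152). Spib also serves mTEC and microfold programmes (2459.9, 2832 and 2636 in GFP+ cells, 2207, 2957 and 2868 in GFP- cells). The tuft list summed to 7266 to 7545 on GFP+ arrays and to 19508 to 26260 on GFP- arrays. Among the 25 largest falls outside the list were Mctp1 (16.6-fold), a calcium-binding membrane protein gene, the kinase Bmx (15.7-fold), Lrmp and Sh2d7. GFP+ signals of Tas2r108, Bmx, Lrmp and Sh2d7 lay below the 40th percentile.

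Keratinised epithelium genes were lower as well. Of 35 tested, 21 were lower and 5 higher, 14 of the lower ones by at least 2-fold, with a median log2 difference of -0.59. Krtdap, a secreted peptide of differentiating keratinocytes, read 197, 183 and 344 in GFP+ cells, against 3179, 1732 and 3179 in GFP- cells (11.2-fold lower). Krt10, a keratin of the suprabasal epidermis, read 379, 341 and 498, against 2509, 2126 and 2431 in GFP- cells (5.86-fold lower), and its partner Krt1 was 4.85-fold lower. Ivl (involucrin), a component of the cornified envelope, read 118, 104 and 133, against 1033, 367 and 527 (4.96-fold lower), and the protease inhibitor gene Spink5 was 10.1-fold lower. In GFP- cells the array numbered 7 was the lowest for Krtdap, Krt10, Ivl and Spink5, and it still lay above every GFP+ array. The largest falls were named only where arrays did not overlap, so for genes such as Krtdap and Spink5 this can follow from the rule. Not all members moved this way: Klk5, a protease of shedding skin, was 3.02-fold higher (410.5, 502 and 436, against 168, 193 and 100.1 in GFP- cells), and the abundant cornified-envelope gene Sprr1a was not called (5298, 4300.1 and 4363 in GFP+ cells, 7370.1, 4696 and 5237 in GFP- cells), except with the replicate block on the 6 arrays alone (adjusted p = 0.041).

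Pan-epithelial markers were lower in 7 of 14 and higher in 1 (Epcam), with sums of 25520 to 29382 on GFP+ arrays and 32389 to 36526 on GFP- arrays. Keratins as a family were lower in 14 of 27 and higher in 6. Krt5, of basal cells, read 1646, 1502 and 2125 in GFP+ cells, against 4427, 4001 and 6551 in GFP- cells (2.81-fold lower), and Krt24 was 4.6-fold and Krt20, of gut epithelium, 3.37-fold higher. Promoters of keratinised genes held the letters TATAAA on either strand within 250 bases before the start in 9 of 26 genes (34.6%), against 7.53% of all genes, and TGANTCA, the letters of an AP-1 site, in 8 of 26 (30.8%), against 4.81%. The 150 bases before the start of Ivl (chr3:92573736-92573885, minus strand) and Krtdap (chr7:30787755-30787904, plus strand), chosen because they hold both, are given from RefSeq (GRCm38.p6), with TATAAA and TGANTCA in capitals.
Ivl: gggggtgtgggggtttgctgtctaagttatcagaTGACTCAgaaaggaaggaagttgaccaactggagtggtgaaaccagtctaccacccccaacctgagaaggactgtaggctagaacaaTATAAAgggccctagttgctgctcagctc
Krtdap: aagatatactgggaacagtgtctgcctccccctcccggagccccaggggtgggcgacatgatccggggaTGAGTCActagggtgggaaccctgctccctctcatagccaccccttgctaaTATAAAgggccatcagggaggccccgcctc
In both, TATAAA lies near the start and the AP-1 letters lie further upstream.

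**Figure D4:**
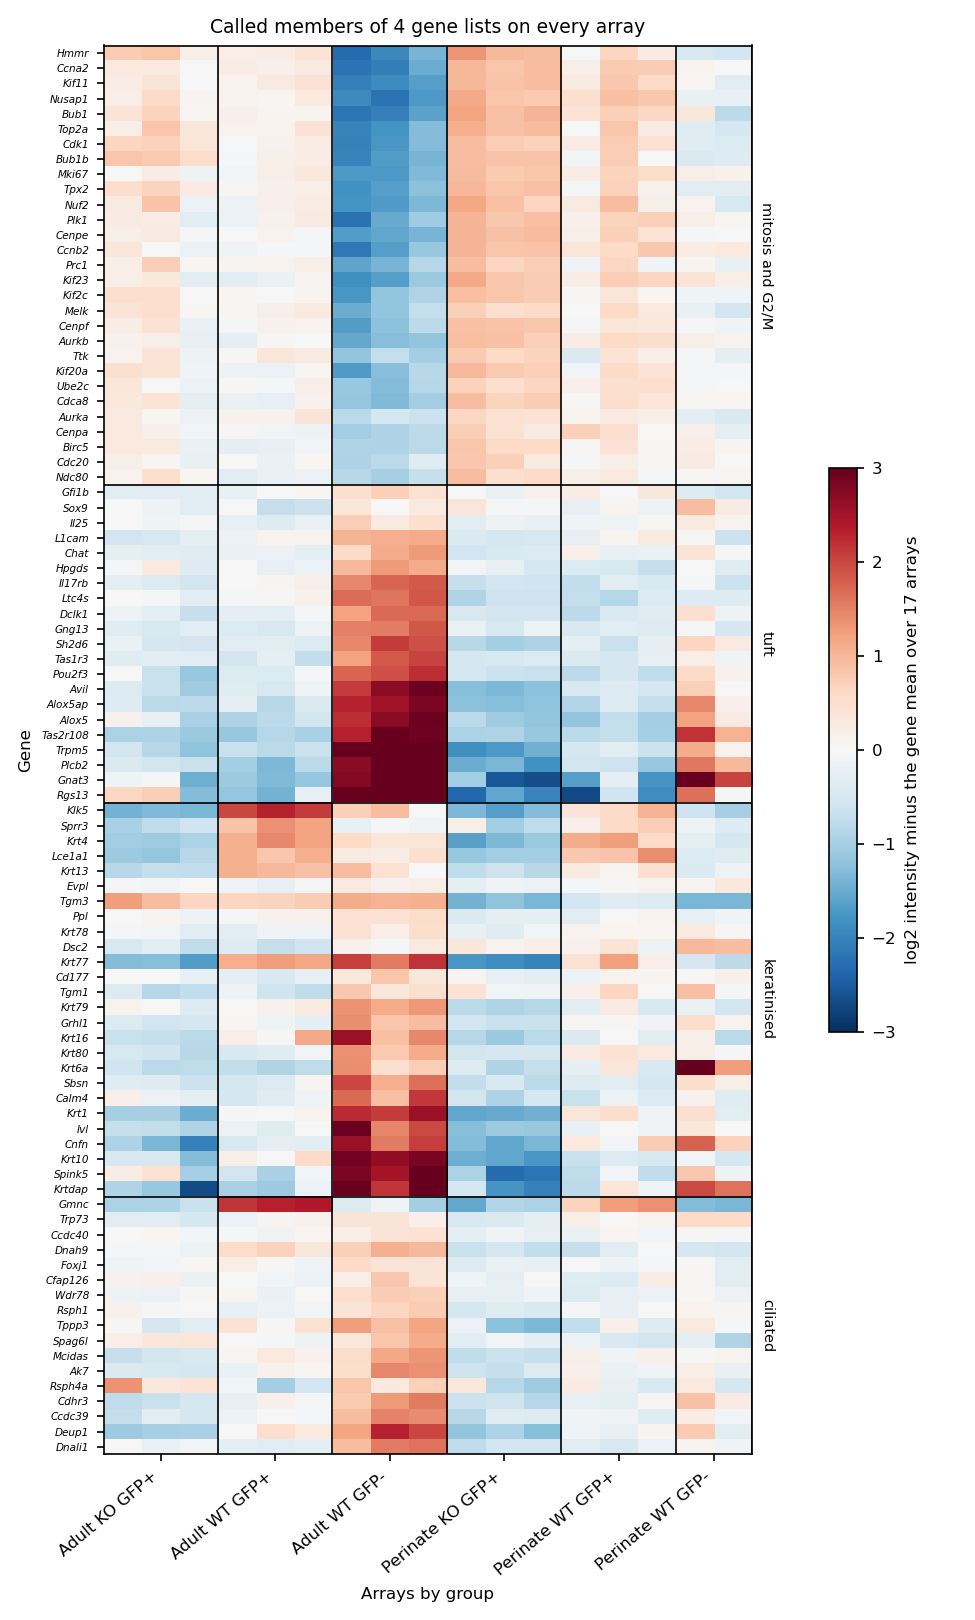
log2 intensity of each called member of 4 lists, minus the gene's mean over all 17 arrays (colour, -3 to 3), on each array of the 6 groups; rows within a list run from the largest to the most negative difference between adult WT GFP+ and GFP- cells. Mitosis genes are low and tuft cell genes high on the 3 adult WT GFP- arrays.

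Ciliated and secretory cell genes were also mostly lower or not called. Of 20 ciliated cell genes, 16 were lower and 1 higher, with a median log2 difference of -0.73; the list summed to 3187 to 3303 on GFP+ arrays and 4409 to 5471 on GFP- arrays. The axonemal dynein gene Dnali1 read 73.5, 71.4 and 73.2 in GFP+ cells, against 169, 261 and 274 in GFP- cells (3.16-fold lower, against GFP+ signals below the 40th percentile), and Foxj1, the master factor of motile cilia, was 1.34-fold lower. The 1 higher gene was Gmnc, which starts the multiciliated programme: it read 332, 381 and 398 in GFP+ cells, against 56.8, 68.9 and 37 in GFP- cells (7.03-fold higher, against GFP- signals below the 40th percentile), and averaged 42.2 ± 4.39 in KO GFP+ cells. The KO mean of Gmnc lay below the 40th percentile of the KO arrays. Of 25 secretory and goblet genes, 12 were lower, 10 of them by at least 2-fold, and 1 was higher. Bpifa1, an airway antimicrobial protein, read 1257, 990.1 and 1685 in GFP+ cells, against 6376, 4857 and 5908 in GFP- cells (4.43-fold lower). Clca1, of goblet cells, was 5.67-fold and Scgb1a1, of club cells, 2.95-fold lower. The airway cytochrome Cyp2f2, among the brightest genes of GFP- cells that were at least 2-fold lower in GFP+ cells, read 463, 522 and 715 in GFP+ cells, against 4507, 4691 and 4839 in GFP- cells (8.4-fold lower).

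Other bright transcripts of GFP- cells belong to skin, airway and olfactory epithelium. Dapl1, a gene of differentiating epithelia, read 3617, 3816 and 5220.2 in GFP+ cells, against 10669, 9945 and 9812 in GFP- cells (2.44-fold lower). Cyp2g1, a cytochrome of the olfactory mucosa, read 1055, 1092 and 1222, against 6324, 6305 and 6481 in GFP- cells (5.68-fold lower), and the chitinase-like gene Chil1 was 3.99-fold lower. The skin cytochrome Cyp2b19, with 219, 254 and 209 in GFP+ cells and 2834, 2036 and 1918 in GFP- cells, and the ephrin gene Efna3 were 9.84-fold and 6.95-fold lower, Efna3 against GFP+ signals below the 40th percentile. No GFP+ array reached a GFP- array for any of these 5 genes, where 25.5% of all genes tested lay below without overlap. The naming rule took the largest falls only from genes whose arrays did not overlap. For genes such as Cyp2b19 and Efna3 the lack of overlap can therefore follow from the rule.

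Microfold cell genes were mixed, 4 higher and 5 lower of 18, with shares near those of all genes, 24.7% higher and 20.1% lower. Gp2, their uptake receptor for bacteria, was 3.27-fold lower (654, 568 and 934, against 2351, 2536 and 2037 in GFP- cells; adjusted p = 0.0105, and 0.0636 without both arrays numbered 6), and Tnfaip2 was not called. Transcription factors of mimetic lineages were lower in 16 of 32 and higher in 5. Besides Pou2f3, the grainyhead factor Grhl1 of skin was 2.26-fold, Klf4 of barrier epithelia 2.4-fold and Ehf of mucous epithelia 2.15-fold lower, and Cdx1 of intestine was 2.44-fold higher. Klf4 was 638, 254 and 258 in GFP+ cells and 1390, 589 and 709 in GFP- cells, with overlapping arrays and the array numbered 6 highest in both. Between arrays of the same number its GFP+ signal was the lower each time. Its call was lost without the GFP+ array numbered 7 or 8 or the GFP- array numbered 6 (adjusted p = 0.102, 0.0997 and 0.132).

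Markers of immature and basal mTECs were lower in 10 of 20 and higher in 1. Igfbp5, a growth-factor-binding protein, read 440.3, 436 and 763 in GFP+ cells, against 2053, 2684 and 3102 in GFP- cells (4.89-fold lower), and Trp63 (p63), which maintains basal epithelial cells, was 1.94-fold lower. The Notch pathway was lower in 10 of 19 and higher in 2: its target gene Hes1 read 259, 153 and 263 in GFP+ cells, against 698, 481 and 639.7 in GFP- cells (2.74-fold lower), the target Heyl was 2.32-fold, the ligand Jag1 2.42-fold and the receptor Notch3 2.01-fold lower. The ligand Dll4 and the DNA-binding partner Rbpj were 1.83-fold and 1.37-fold higher.

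Interferon-stimulated genes were lower in 14 of 31 and higher in 3, with a median log2 difference of -0.42. Irf7, which amplifies the interferon response, read 452, 418 and 547 in GFP+ cells, against 1049, 1054 and 1629 in GFP- cells (2.59-fold lower), and the guanylate-binding protein gene Gbp4 was 2.92-fold higher. Immediate-early and stress genes were lower in 7 of 30, a share near the 20.1% of all genes, and higher in 1. Their summed signal overlapped, 41308 to 66474 on GFP+ arrays and 49189 to 74224 on GFP- arrays. Between arrays of the same number the GFP+ sum was the lower each time. The sums were 66474 against 74224 for number 6, 41308 against 49189 for number 7 and 43788 against 59369 for number 8. Egr3, one of them, was 2.7-fold lower. The highest sum within each population was that of the array numbered 6. Chemokine Ccl11 (eotaxin), which attracts eosinophils, read 326, 469.9 and 460.4 in GFP+ cells, against 3863, 2042 and 4714 in GFP- cells (8.08-fold lower).

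Desmosome and claudin genes were lower in 10 of 32 and higher in 6, against 20.1% lower and 24.7% higher over all genes. The desmosomal plaque genes Dsp (2.18-fold) and Jup (1.92-fold) were lower, and Cldn10 and Cldn18 were 2.1-fold and 2.03-fold higher from GFP- signals below the 40th percentile. Members of the Ly6 family were lower in 8 of 18 and higher in 3. Lypd3 read 294, 277 and 274 in GFP+ cells, against 2619.7, 1778 and 2052 in GFP- cells (7.54-fold lower), and Ly6d was 2.97-fold lower, while Ly6g, known as a neutrophil surface marker, read 2081, 2479.7 and 2603 in GFP+ cells, against 1379.5, 1422 and 966 in GFP- cells (1.92-fold higher), with an average of 29.7 ± 2.78 in KO GFP+ cells. The KO mean of Ly6g lay below the 40th percentile of the KO arrays. Ly6 genes are near-identical copies in part, so probe sets may take signal from more than 1 member. Collagen and basement membrane genes (5 higher, 8 lower of 25), Wnt genes (6 and 6 of 25), cortical epithelial genes (5 and 6 of 18) and fatty acid and sterol enzymes (4 and 3 of 17) were mixed.

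The same contrast in perinates asks which of these differences belong to both ages. The perinate group means rest on other arrays, 3 of GFP+ and 2 of GFP- cells. Both contrasts share the filter and the estimate of the spread, so their calls are not independent and the shared counts are a description. Of 13842 genes tested, 1101 were called and at least 2-fold higher and 717 at least 2-fold lower in perinates. Of 808 genes at least 2-fold higher in adult GFP+ cells, 514 were also at least 2-fold higher in perinates, which is 63.6% of the adult list and 46.7% of the 1101 genes of the perinate list. Of 565 genes at least 2-fold lower in adults, 180 were also at least 2-fold lower in perinates, 31.9% of the adult list and 25.1% of the 717 genes of the perinate list. At any fold, 694 of the 808 were called higher and 307 of the 565 lower in perinates, where 22.9% and 20.5% of all genes were. A test of the difference itself, adult minus perinate, called 2761 genes (19.9%), 1283 positive (9.27%) and 1478 negative (10.7%). Among the adult genes at least 2-fold lower, 299 had a called difference in the same direction, that is, lower in adults than in perinates by the contrast. Among those at least 2-fold higher, 160 had a called positive and 119 a called negative difference. The opposite direction was found for 22 of the adult genes at least 2-fold lower. The adult values that chose both lists also enter this difference, so these counts are a description.

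Over all genes, 22.9% were called higher and 20.5% lower in perinate GFP+ cells. Mitosis genes were called higher there in 12 of 29 and lower in 0, with a median log2 difference of 0.40, against 1.40 in adults; 22 had a called difference between the ages and all 22 were positive. The members' median intensity was 357.5 in adult GFP+ cells and 149.5 in adult GFP- cells, and 437.2 in perinate GFP+ cells and 307.9 in perinate GFP- cells. The lowest of these 4 values was thus that of adult GFP- cells. Ccna2 differed by 2.14 in adults and 0.53 in perinates on the log2 scale (difference 1.61, adjusted p = 0.000374).

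Tuft cell genes were called lower in perinate GFP+ cells in 12 of 24 and higher in 3, with a median log2 difference of -0.56, against -1.87 in adults; 21 had a called negative difference between the ages. Their median intensity was 151.7 in adult GFP+ cells and 721.1 in adult GFP- cells, and 138.2 in perinate GFP+ cells and 249.2 in perinate GFP- cells, so the highest was that of adult GFP- cells. Trpm5 read 131, 149 and 121 in perinate GFP+ cells, against 408 and 201 in perinate GFP- cells, while its adult GFP- signals lay at 1506 to 2152. Gnat3 had no called difference between the ages, with a log2 difference of -4.44 in adults and -3.95 in perinates (adjusted p of the difference = 0.696). Keratinised genes were called higher in perinates in 12 of 35 and lower in 5, with a median of 0.06, and secretory genes higher in 10 and lower in 2 of 25, with a median of 0.37; in adults 21 of 35 and 12 of 25 were lower. The keratinised count in perinates, 5 lower, is a smaller share than over all genes, and its 12 higher a larger one.

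**Figure D5:**
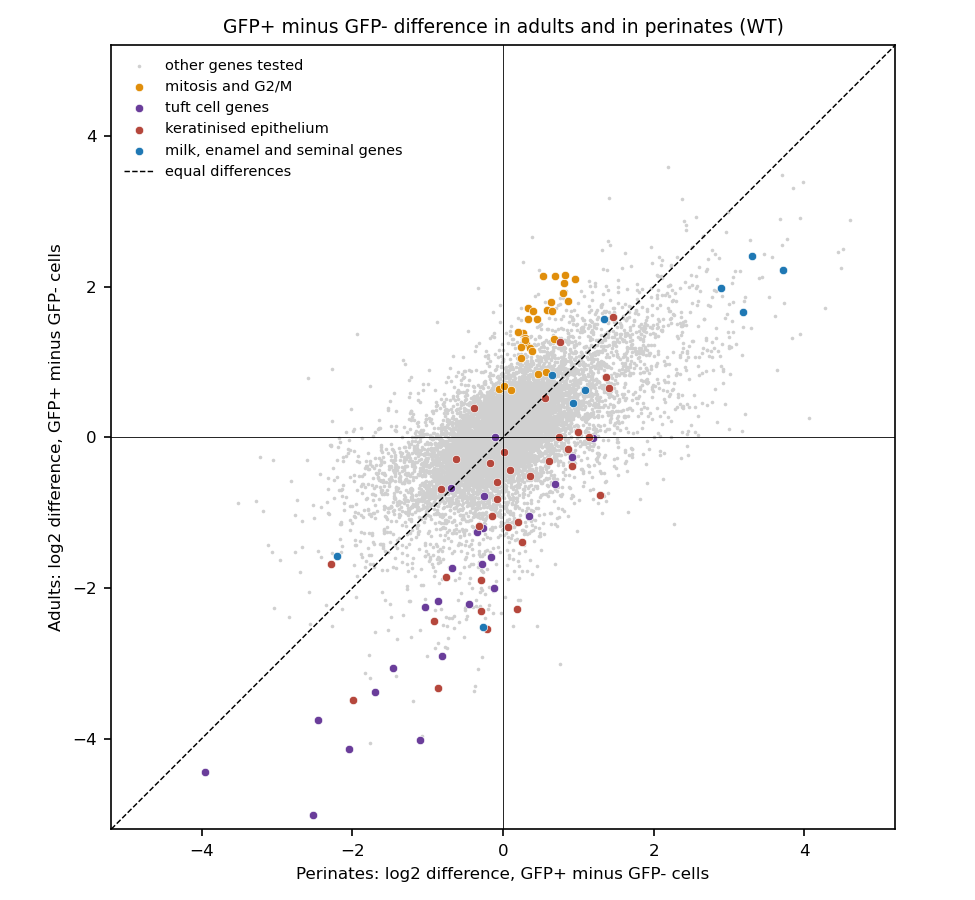
Each point is 1 tested gene, placed by its log2 difference, GFP+ minus GFP- cells, in WT perinates (horizontal) and WT adults (vertical); the dashed line marks equal differences. Mitosis genes (median 1.40 in adults and 0.40 in perinates) lie above the line and most tuft cell genes (-1.87 and -0.56) below it.

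Single genes with the largest differences between the ages came from several families. Lyz2 and Lyz1, lysozyme genes of macrophages and Paneth cells, read 5046, 5278 and 5255 and 5754, 6615 and 5996 in adult GFP+ cells, against 4502, 4659 and 3941 and 5499, 5936 and 5801 in adult GFP- cells. In perinates Lyz2 read 2912, 3664 and 3366 in GFP+ cells, against 199 and 196 in GFP- cells, a log2 difference of 4.06 where adults had 0.25 (adjusted p of the adult difference = 0.0477, 0.0559 with the replicate block, and 0.0625 to 0.187 without any 1 array other than the GFP- array numbered 7). Ccl11 differed by -3.01 in adults, and its difference of 0.75 in perinates was not called. Il12rb2, a chain of the interleukin 12 receptor, was 2.22-fold lower in adult GFP+ cells and had a log2 difference of 2.27 in perinates. In the other direction, Ptprz1, a receptor phosphatase, and Nqo1, an antioxidant enzyme, were 1.73-fold and 1.88-fold higher in adult GFP+ cells, with log2 differences of -2.58 and -2.27 in perinates. The 2 lysozyme genes are similar in sequence, so their probe sets may share signal.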

How the data were processed

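RNA of sorted thymic medullary epithelial cells was measured on Affymetrix whole-transcript arrays (Mouse Gene 1.0 ST), 1 array per sample and 17 in all. The deposited table holds the authors' intensity values for 24922 probe sets in linear units. Per the submitters' processing notes, Affymetrix Power Tools and RMA were used; the sources used here give no versions. Values lay between 6.36 and 20106 and were used without further normalization.

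Probe sets were named from the platform annotation: 21425 carry 1 gene symbol, 1399 several and 2098 none, and only the first kind was used. Of those, 21347 were found by Entrez ID in the RefSeq gene table, and no symbol changed. For 921 genes with several probe sets the one with the highest mean was taken. Genes above the 40th percentile of an array on at least 2 arrays were kept (13842). limma 3.58.1 in R 4.3.3 fitted 6 group means to log2 intensity over all 17 arrays, which share 1 estimate of the spread, with Benjamini-Hochberg adjustment over all genes; a gene is called at an adjusted p under 0.05. The difference between ages is the adult minus the perinate contrast in the same fit. The script was tested on simulated data first.

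Adult GFP+ and GFP- samples share the numbers 6, 7 and 8. Deviations from the group means correlated at 0.503, 0.442 and 0.188 between samples of the same number and at -0.439 to 0.0969 between others. The numbers were therefore read as pairs, on the data and not on a statement in the labels. The fit behind the values reported has no block for the number, so its p-values, intervals and counts are unpaired. A fit with the number as a block was an alternative; blocked values stand beside a result where they change its call.

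The arrays compared and the gene lists were chosen with earlier results of these data known. Genes were named by a rule: Aire and G6pc2, the 25 largest called differences each way without overlap, up to 6 called genes each way and the 3 brightest others of each list, the 8 largest age differences each way, the 10 brightest 2-fold genes of each population, and cell type markers. Genes outside it are Nr4a1, Rag1, Tnfrsf11a, Mki67, Cdk1 and Ccnb2. Promoters are the 250 bases before the first listed RefSeq start (GRCm38.p6), found for 10989 tested genes, 2162 of them with several starts. The other alternatives were quantile normalization, median centring, no filter, a filter at the 60th percentile, a pseudocount of 16, array weights, an intensity trend in the prior, the mean of a gene's probe sets, the 6 arrays alone, and leaving out arrays.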

Additional observations from a re-analysis of the deposited data

Results flagged for a closer look

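Of the 177 genes named in the text and tested, 96 differed between the ages in the size of the difference between GFP+ and GFP- cells, by a test of that difference itself (adult minus perinate contrast, limma, Benjamini-Hochberg adjustment over all genes, adjusted p between 1.42e-10 and 0.0493), where 19.9% of all genes did. They are given as log2 values, adult minus perinate; a positive value means that GFP+ cells stood higher relative to GFP- cells in adults than in perinates. Perinate GFP- cells are represented by 2 arrays. Many of the genes were named for a large adult difference, which enters this contrast, and others for the age difference itself. A share above that of all genes was therefore built in by the choice of genes. Cell cycle genes with a called difference were positive, that is, further above GFP- cells in adults: 1.61 for Ccna2, 1.23 for Ccnb2, 0.67 for Ccnd2, 0.95 for Cdk1, 1.33 for Hmmr, 1.45 for Kif11, 1.06 for Mcm3, 1.39 for Mki67, 1.39 for Pole, 0.79 for Rrm2 and 1.12 for Top2a. Among tuft cell genes and other genes of the largest falls the values were -1.68 for Alox5, -1.59 for Alox5ap, -2.08 for Avil, -1.06 for Dclk1, -1.30 for Gnb3, -1.88 for Gng13, -0.52 for Il25, -2.09 for Plcb2, -1.17 for Plcg2, -1.21 for Pou2f3, -2.50 for Rgs13, -1.20 for Spib, -1.31 for Tas2r108, -2.92 for Trpm5, -2.89 for Bmx, -2.29 for Mctp1, -1.43 for Lrmp and -1.88 for Sh2d7. Keratinocyte and skin genes gave -2.92 for Cyp2b19, -1.89 for Efna3, -0.85 for Grhl1, -2.02 for Ivl, -2.47 for Krt1, -2.34 for Krt10, -1.29 for Ly6d, -2.63 for Lypd3 and -2.47 for Spink5. The keratin genes that were higher in GFP+ cells gave -0.96 for Krt20 and -0.88 for Krt24.

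Airway, olfactory, secretory and ciliated genes gave -1.58 for Chil1, -2.95 for Clca1, -2.73 for Cyp2f2, -2.63 for Cyp2g1, -1.34 for Dnali1, -1.48 for Ehf and -1.08 for Tff3. Gut, liver, pancreas and endocrine transcripts gave -1.94 for Cdhr5, -1.91 for Chga, 2.28 for Fgg, -1.07 for Hp, -2.01 for Iapp, 1.77 for Kmo, -1.67 for Lgals4, -1.54 for Pla2g1b, -2.32 for Reg3b, -1.55 for Rnase1 and -1.52 for Ttr. Other organ-restricted transcripts gave 1.49 for Actc1, 0.58 for Cldn18, -1.52 for Csn1s1, -1.49 for Csn2, -1.95 for Hdc, -2.88 for Klk1b8, -1.95 for Ly6g, -3.08 for Lyz1, -3.81 for Lyz2, 1.40 for Olfr1136, -1.49 for Pcp4 and -1.72 for Ucma. The sort genes, mTEC regulators and their receptors gave -1.03 for Aire, -2.01 for G6pc2, -2.14 for Fezf2, -1.80 for Irf4, -0.54 for Dnmt3l, -1.05 for Tnfrsf11a and 0.76 for Tnfrsf1a. Antigen presentation and costimulation genes gave -2.16 for Cd80, -1.48 for Cd86, 1.01 for Ciita, -1.37 for Ctsh, -0.84 for Ctss, -2.57 for H2-Eb2 and -1.21 for H2-Ob. Chemokines and cytokine receptors gave -3.77 for Ccl11, -1.98 for Cxcl13, -3.42 for Il12rb2 and 0.81 for Xcl1. Notch, cortical and remaining genes gave 1.30 for Dll4, 0.83 for Enpep, -0.97 for Heyl, -1.39 for Igfbp5, 3.18 for Nqo1, 1.76 for Psmb11, 3.37 for Ptprz1 and -0.75 for Rbpj.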

How the results depend on the processing

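Across 19 alternatives, the counts of called genes stayed within 1.5 times of those reported. Leaving out 1 of the 6 arrays at a time gave 2924 to 3206 higher and 2321 to 2538 lower genes, 796 to 843 and 517 to 604 of at least 2-fold, and 2265 to 2831 with a called age difference. The replicate number as a block gave 3445 higher and 2798 lower genes (2816 with an age difference) over 17 arrays, and 3963 and 3317 over the 6 arrays alone. The block changed the calls of Fezf2, Lyz2 and Sprr1a and no other call among the genes named. Quantile normalization gave 3173 higher and 3295 lower genes, so 49.1% of called genes were higher, against 55.1% in the values reported. Chosen after seeing the data, leaving out both arrays numbered 6 gave 2548 and 2148 genes, and leaving out the perinate KO arrays 2 and 3 gave 3252 and 2642.

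Of 157 named genes that were called, 151 kept direction and call under every alternative run. The others, Epcam, Fezf2, Gp2, Klf4, Lyz2 and Tnfrsf11a, kept their direction; quantile normalization gave an adjusted p of 0.069 for Epcam and 0.203 for Fezf2, and Fezf2 also lost its call with no filter (0.0502). Lyz2 lost its call under 12 alternatives, with adjusted p of 0.0535 to 0.522, and the cause was not tested. Named genes that gained a call were Plcg2, Sprr1a, H2-Ab1 (intensity trend in the prior) and Chga (array weights, adjusted p = 0.0497). Signs turned only for genes that were not called. With quantile normalization Hmx2 was at -0.0329, Klk1b8 at -0.0175 and Lyz1 at -0.0297, and with median centring Hmx2 was at -0.0119. Leaving out 1 array at a time gave -0.0857 to 0.1183 for Hmx2, -0.0162 to 0.2201 for Klk1b8, -0.8881 to 0.1139 for Nr4a1, -0.3704 to 0.7423 for Rag1 and -0.1426 to 0.0685 for Spib, all as log2 differences, GFP+ minus GFP- cells. Of 2850 list counts and medians recomputed, 198 moved beyond their limit, 31 of them with the filter at the 60th percentile. Signals below the 40th percentile set the limit of what these arrays can show.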

Other observations

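Several lists differed between the ages mostly in 1 direction, by the contrast adult minus perinate. Replication genes had 15 positive and 0 negative called differences of 29, collagens and basement membrane genes 12 and 0 of 25, and cortical epithelial genes 10 and 1 of 18. Transcripts commonly cited as Aire-induced had 0 positive and 12 negative of 19, microfold cell genes 0 and 10 of 18, Ly6 family genes 0 and 11 of 18, and enterocyte and hepatocyte genes 1 and 13 of 28. Over all genes tested, 9.27% were positive and 10.7% negative.

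Genes with large differences in either direction had promoters with few CpG dinucleotides. The median was 2.8 CpG per 100 bases over the 630 genes at least 2-fold higher with a promoter and 2.8 over the 416 at least 2-fold lower, against 6.0 over all 10989. TATAAA occurred in 14.4% of promoters of the higher and 12.3% of the lower genes, against 7.53% of all. Mitosis genes, by contrast, had a median of 7.2 CpG per 100 bases, and keratinised genes 1.2.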
